A study of Mus musculus with 6 samples.

Results

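The 32 genes described here belong to the peroxisome and were chosen by name: 13 Pex genes, which build the organelle, and 19 genes for its matrix enzymes and its membrane ABC transporters. Of these, 31 had a row in the deposited table of 25102 mouse genes, and Dao was not analysed here. The table holds FPKM values, that is, fragment counts scaled by transcript length and by the mapped fragments of the library, from poly(A) RNA sequencing of 6 livers of male C57BL/6J mice. The 3 DEN+CCl4 mice entered at 2 weeks of age with 1 intraperitoneal dose of diethylnitrosamine (DEN, 1 mg/kg), a liver carcinogen. About 6 weeks later they began carbon tetrachloride (CCl4, 0.2 mL/kg), a liver toxin, which they received by the same route, 2 injections a week over at most 14 weeks, as a model of hepatocellular carcinoma. The 3 control mice were of the same strain, sex and starting age, and the labels name no vehicle for them. The labels do not say whether tumour or surrounding liver was taken, nor do they name an animal beyond the replicate number, so p-values measure only the spread between these samples.

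Peroxisomes are single-membrane organelles that shorten very long-chain and branched fatty acids, detoxify glyoxylate and break down hydrogen peroxide, and the hepatocyte is rich in them. Their enzymes are made in the cytosol and carried in by import receptors, which dock at the membrane, release their cargo and are pulled out again after ubiquitination. Many of the fatty acid enzymes are known targets of PPARα, a nuclear receptor that is activated by fatty acids.

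By median fold change, the peroxisomal enzymes stood lower in the DEN+CCl4 livers than the genes that build the organelle did. This difference did not hold in every liver: DEN+CCl4 replicate 1 lay inside the control range. By the ratio of the class medians, only replicate 2 lay below the controls. No member passed the test. A gene was tested where its mean over the 6 libraries was at least 1 FPKM, which 27 of the 31 members reached (11 Pex genes, 15 enzymes and Abcd3). The fold changes below are differences of mean log2(FPKM + 1), DEN+CCl4 minus control, from limma with p-values adjusted by Benjamini-Hochberg over 8528 tested genes. At an adjusted p under 0.05, 0 of the 27 members were higher and 0 were lower, against a background of 0.833% of all tested genes higher and 0.645% lower. By limma's unadjusted p under the same limit, 5 members were lower (Hacl1, Ehhadh, Crot, Abcd3 and Pex11a) and 0 higher, against 5.07% and 2.53% of all tested genes. The median log2 fold change was -1.48 over the 16 tested enzymes and transporters, -0.76 over the 11 tested Pex genes and -0.27 over all tested genes. Without DEN+CCl4 replicate 3 these medians were -0.82, -0.19 and 0.12, and the members ran from -1.14 (Crot) to 0.43 (Pex10). Over genes averaging at least 5 FPKM in all 6 libraries, 21 of them members, the medians were -1.48, -0.81 and -0.53. In the main fit all 27 tested members had a negative fold change, as did 74.4% of all tested genes.

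DEN+CCl4 replicate 3 stood apart from the other libraries. Its median tested gene was at 1.19 FPKM, against 3.79 FPKM in replicate 1, 4.46 FPKM in replicate 2 and 3.43 to 3.71 FPKM in the control livers. Transcripts of the mitochondrial genome made up 64.2% of its FPKM, against 36.9% and 40.6% in the other DEN+CCl4 livers and 26.6% to 43.0% in the controls. It listed 16447 genes above 0, where the other 5 libraries listed 19260 to 20634. Values were therefore also rescaled by median ratio, which uses the genes above 0 in all 6 libraries and brings the all-gene median log2 fold change to -0.10. After that scaling the medians were -1.25 for the enzymes and transporters and -0.52 for the Pex genes. No gene of the table then passed the adjusted threshold in limma, while 14 members were lower and 0 higher at an unadjusted p under 0.05, against 6.74% and 4.39% of all tested genes. With DEN+CCl4 replicate 1 also left out, a combination chosen after the data were seen, 6 members passed, all lower, against 5.14% of all tested genes lower and 2.73% higher. They were Ech1, Eci2, Hacl1, Hsd17b4, Pex11a and Pipox.

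**Figure D1:**
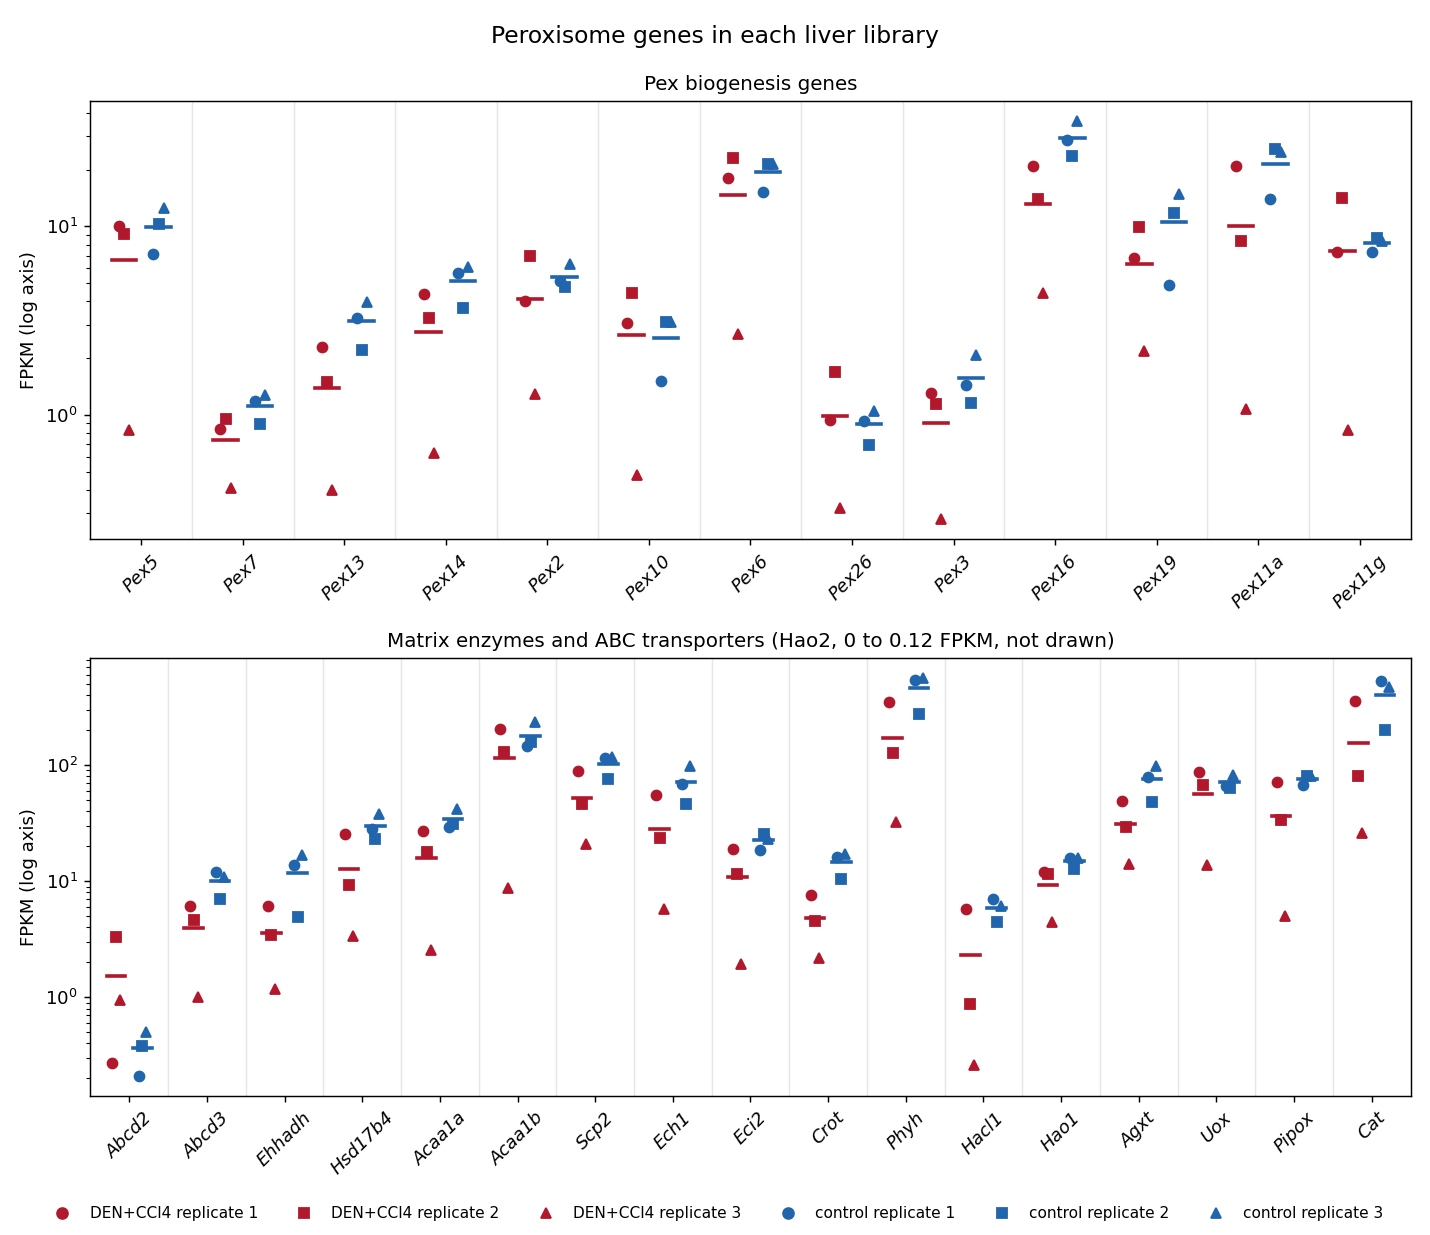
FPKM of each member (log axis) in every library, DEN+CCl4 in red left of control in blue, with a marker shape for each replicate number and a bar at the group mean (n = 3). DEN+CCl4 replicate 3 (red triangles) is the lowest point of every tested gene, while DEN+CCl4 replicate 2 (red squares) lies below the controls for most enzymes and within or above them for several Pex genes.

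The difference between the classes, which was given no test, was also seen in replicate 2 alone. In DEN+CCl4 replicate 2, 15 of the 16 enzymes and transporters lay below all 3 controls, against 5 of the 11 Pex genes, of which another 4 lay above all controls. Of all tested genes, 22.7% were under the controls in that library and 45.1% were above them. In DEN+CCl4 replicate 1 the counts were 4 of 16 enzymes and transporters and 3 of 11 Pex genes, with 11.9% of all tested genes. In replicate 3 all 16 and all 11 lay below the controls, as did 83.9% of all tested genes. After median-ratio scaling the enzymes and transporters below all controls numbered 7, 16 and 16 in DEN+CCl4 replicates 1, 2 and 3, and the Pex genes 4, 6 and 10, against 19.9%, 38.2% and 47.3% of all tested genes. The Pex genes above all controls in replicate 2 were then 2 of 11, against 27.7% of all tested genes.

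Set against all tested genes of the same library, the median enzyme or transporter stood at -0.33, -1.38 and -1.55 log2 units in DEN+CCl4 replicates 1 to 3 and at 0.14, -0.35 and 0.21 in the controls. The median Pex gene stood at -0.21, -0.26 and -0.83 in the DEN+CCl4 livers and at -0.11, 0.08 and 0.18 in the controls. Each position is the median difference from the gene's own control mean, less the same median over all tested genes. The enzyme positions of DEN+CCl4 replicates 2 and 3 lay below every control, whereas that of replicate 1 fell inside the control range. For the Pex genes all 3 DEN+CCl4 livers lay below the controls, in replicates 2 and 3 by a smaller distance than for the enzymes. A list of 9 hepatocyte markers stood at -0.09, 0.35 and -0.46 in the DEN+CCl4 livers and at 0.07, -0.30 and 0.17 in the controls. After median-ratio scaling the replicate 3 value turned to 0.14, while the enzyme and Pex values kept their sign in all 3 DEN+CCl4 livers. The markers split in DEN+CCl4 replicate 2, where Alb, Apoa1 and Ahsg were above every control and Cps1, Ttr and Serpina1c below.

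**Figure D2:**
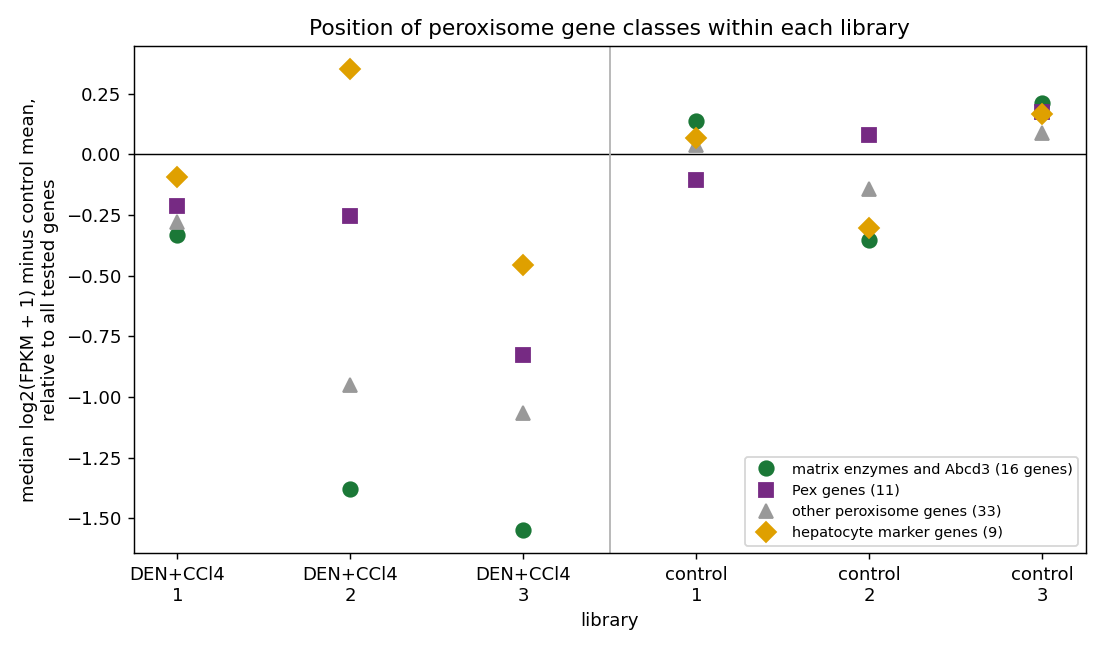
Median position of 4 gene classes in each library, as log2(FPKM + 1) minus the control mean of each gene, relative to all tested genes of that library. The matrix enzymes and Abcd3 (green circles) sit at -1.38 and -1.55 in DEN+CCl4 replicates 2 and 3, below the Pex genes (purple squares, -0.26 and -0.83), while hepatocyte markers (yellow diamonds) sit at 0.35 and -0.46, the second of which turns to 0.14 after median-ratio scaling.

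The ratio of the classes within a library does not depend on how that library was scaled. The median enzyme or transporter was 5.68, 2.47 and 5.72 times the median Pex gene in the DEN+CCl4 livers and 8.55, 4.46 and 7.27 times in the controls. The groups overlapped, because control replicate 2 was below DEN+CCl4 replicates 1 and 3. That control was also the lowest of the 3 for Cat, Phyh, Ech1 and Ehhadh.

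**Figure D3:**
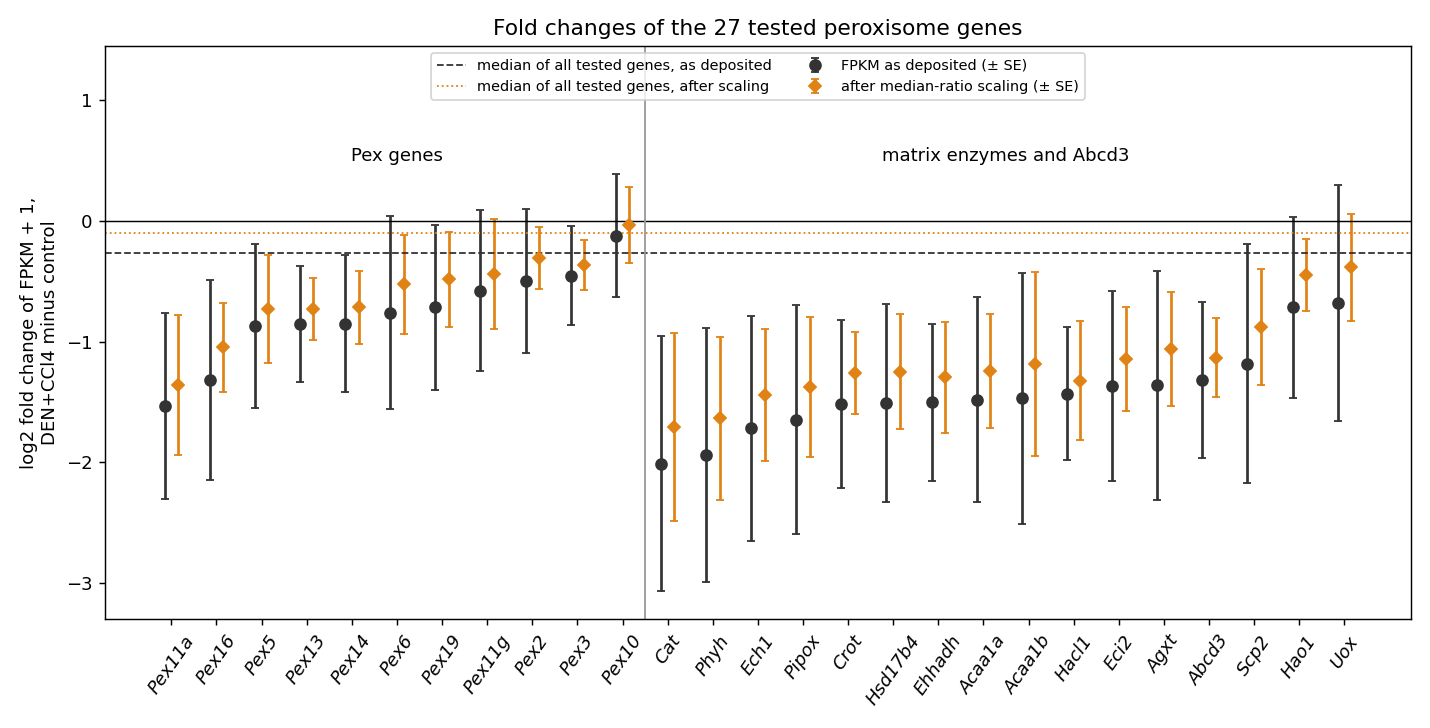
Log2 fold changes (DEN+CCl4 minus control, FPKM + 1) of the 27 tested members with standard errors, as deposited (black circles) and after median-ratio scaling (orange diamonds), with the median of all tested genes on each scale. Most enzymes lie between -2.01 and -1.18, with Hao1 and Uox closer to 0, and most Pex genes between -0.87 and -0.12, with Pex11a and Pex16 lower.

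Pex5 encodes the receptor for most matrix enzymes, which carry a short signal at their end, and Pex7 the receptor for those with a signal near their start. Pex5 read 10.01, 9.12 and 0.83 FPKM in the DEN+CCl4 livers against 7.15, 10.32 and 12.46 FPKM in the controls. The first 2 DEN+CCl4 livers fell inside the control range and only replicate 3 lay below it (log2 fold change -0.87, SE 0.68, limma adjusted p 0.979; -0.03 without replicate 3). Pex7 read 0.84, 0.95 and 0.41 FPKM in DEN+CCl4 livers against 1.19, 0.89 and 1.28 FPKM in controls and was too low to be tested.

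The docking partners Pex13 and Pex14, which hold the loaded receptor at the membrane, had nearly equal fold changes of -0.85. Pex13 was at 2.28, 1.50 and 0.40 FPKM in the DEN+CCl4 livers and at 3.27, 2.20 and 3.97 FPKM in the controls (limma adjusted p 0.764). As deposited the groups overlapped through control replicate 2, and after median-ratio scaling every DEN+CCl4 liver was below every control. Pex14 was at 4.37, 3.28 and 0.63 FPKM in DEN+CCl4 livers and at 5.63, 3.69 and 6.08 FPKM in controls, with an overlap of the groups on both scales. Gm17029, on the other strand, covers 28.3% of the exon bases of Pex14, and strand use in counting is not given in the sources used here. It was listed at 0.37 FPKM or less in every library.

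Pex2 and Pex10 are subunits of the ubiquitin ligase that marks the receptors for release, and with all 6 libraries Pex10 had the fold change closest to 0 of all tested members. Pex10 had 3.06, 4.45 and 0.48 FPKM in the DEN+CCl4 livers and 1.51, 3.10 and 3.10 FPKM in the controls (log2 fold change -0.12, SE 0.51). Its sign rested on replicate 3: without that liver the fold change was 0.43. Pex2 had 4.01, 7.00 and 1.29 FPKM in DEN+CCl4 livers and 5.13, 4.75 and 6.32 FPKM in controls (-0.50, SE 0.60). In both genes DEN+CCl4 replicate 2 was above every control, as were 45.1% of all tested genes in that library. After median-ratio scaling Pex10 stayed above the controls there, and Pex2 fell inside their range.

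Pex6 is an ATPase that extracts the receptors, and Pex26 anchors it to the membrane. Pex6 read 18.06, 23.14 and 2.67 FPKM in the DEN+CCl4 livers against 15.29, 21.52 and 21.31 FPKM in the controls. Its log2 fold change of -0.76 (SE 0.80) was 0.09 without DEN+CCl4 replicate 3. Pex26 read 0.94, 1.69 and 0.32 FPKM in DEN+CCl4 livers against 0.93, 0.69 and 1.05 FPKM in controls, below the level for testing.

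Pex3, Pex16 and Pex19 insert proteins into the peroxisomal membrane, with Pex19 as the soluble chaperone. Among the Pex genes, Pex16 alone had groups that did not overlap on the deposited scale: 20.86, 13.91 and 4.41 FPKM in the DEN+CCl4 livers and 28.73, 23.69 and 36.16 FPKM in the controls. Its means were 13.1 ± 8.26 FPKM in DEN+CCl4 livers and 29.5 ± 6.27 FPKM in controls (SD, n = 3 each; log2 fold change -1.32, SE 0.83, limma adjusted p 0.862). Pex19 was at 6.76, 9.91 and 2.17 FPKM in DEN+CCl4 livers and at 4.86, 11.77 and 14.87 FPKM in controls, with a wide spread within each group. Pex3 was at 1.31, 1.14 and 0.28 FPKM in DEN+CCl4 livers and at 1.44, 1.16 and 2.09 FPKM in controls. The 3 genes thus did not share a pattern: the Pex16 groups were separate, and the first 2 DEN+CCl4 livers stayed inside the control range for Pex19.

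Pex11a and Pex11g encode membrane proteins that elongate peroxisomes before they divide, and Pex11a is a known PPARα target. Pex11a had 20.81, 8.37 and 1.08 FPKM in the DEN+CCl4 livers and 14.04, 25.70 and 24.65 FPKM in the controls (log2 fold change -1.53, SE 0.77, limma adjusted p 0.643; -0.61 without DEN+CCl4 replicate 3). Pex11g had 7.31, 14.07 and 0.83 FPKM in DEN+CCl4 livers and 7.35, 8.69 and 8.41 FPKM in controls (-0.58, SE 0.67; 0.29 without DEN+CCl4 replicate 3). In DEN+CCl4 replicate 2 the paralogs lay on opposite sides of the controls. The ratio of Pex11a to Pex11g within a library was 2.85, 0.595 and 1.301 in the DEN+CCl4 livers and 1.91, 2.96 and 2.93 in the controls. This pair was chosen after its values were seen, and its groups overlapped. The antisense gene Gm44775 covers 41.1% of the exon bases of Pex11g and was listed at 0.58 FPKM or less in every library.

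Over the tested members, 5 of 27 had DEN+CCl4 values all below the controls on the deposited scale and 0 had them all above, against 5.35% and 3.01% of all tested genes. They were Pex16, Abcd3, Acaa1a, Crot and Hao1. After median-ratio scaling there were 9, with Pex13, Eci2, Agxt and Pipox added, against 8.68% of all tested genes, and again 0 above, against 5.95%.

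Abcd3 and Abcd2 are ABC transporters that carry fatty acyl-CoA into the peroxisome, Abcd3 with a preference for branched and dicarboxylic chains. Abcd3 was at 6.12, 4.66 and 1.01 FPKM in the DEN+CCl4 livers and at 12.05, 7.03 and 10.92 FPKM in the controls. Each DEN+CCl4 liver was below each control (log2 fold change -1.32, SE 0.65, limma adjusted p 0.620). Abcd2 went the other way in 2 livers, with 0.27, 3.33 and 0.94 FPKM in DEN+CCl4 livers and 0.21, 0.38 and 0.50 FPKM in controls. It was too low to be tested with the others. With no filter on low values limma gave 0.70 and an unadjusted p of 0.16. The ratio of Abcd2 to Abcd3, chosen after its values were seen, was 0.0441, 0.715 and 0.931 in the DEN+CCl4 livers and 0.0174, 0.0541 and 0.0458 in the controls, and DEN+CCl4 replicate 1 fell inside the control range.

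**Figure D4:**
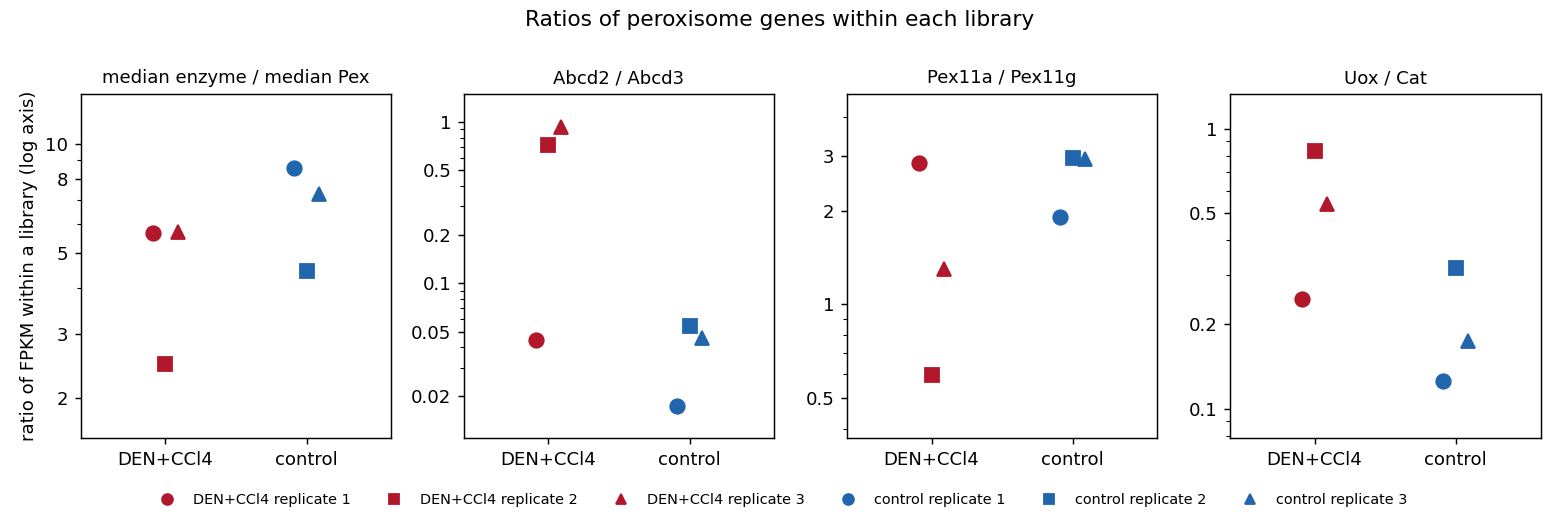
Ratios of FPKM within each library (log axes), DEN+CCl4 in red left of control in blue, with a marker shape for each replicate number. The groups overlap in all 4 panels: DEN+CCl4 replicate 1 lies in the control range for Abcd2 to Abcd3 (0.0441), Pex11a to Pex11g (2.85) and Uox to Cat (0.246), and the median enzyme or transporter over the median Pex gene was 5.68, 2.47 and 5.72 in DEN+CCl4 livers.

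The core of fatty acid β-oxidation in the peroxisome was represented by Ehhadh and Hsd17b4, the bifunctional enzymes of the middle steps, by the thiolases Acaa1a and Acaa1b, and by Scp2, a thiolase and lipid carrier. All 5 were tested, 0 passed in either direction, and their median log2 fold change was -1.48. Ehhadh read 6.12, 3.43 and 1.18 FPKM in the DEN+CCl4 livers against 13.80, 4.92 and 16.89 FPKM in the controls (log2 fold change -1.50, SE 0.65, limma adjusted p 0.429). DEN+CCl4 replicate 1 was above control replicate 2, and the other DEN+CCl4 values were below every control. Hsd17b4 read 25.62, 9.21 and 3.34 FPKM in DEN+CCl4 livers against 27.92, 23.11 and 38.12 FPKM in controls. Acaa1a read 27.20, 18.02 and 2.58 FPKM in DEN+CCl4 livers against 29.53, 31.14 and 41.55 FPKM in controls, with no overlap (15.9 ± 12.4 FPKM in DEN+CCl4 livers and 34.1 ± 6.53 FPKM in controls, SD, n = 3 each; -1.48, SE 0.85, limma adjusted p 0.776).

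Acaa1b was the more abundant thiolase per length, with 203.50, 130.73 and 8.70 FPKM in the DEN+CCl4 livers and 145.82, 159.60 and 234.40 FPKM in the controls. Its first DEN+CCl4 liver was inside the control range and its DEN+CCl4 replicate 3 far below it (log2 fold change -1.47, SE 1.04; -0.11 without DEN+CCl4 replicate 3). The thiolase pair is uncertain, since 40.01% of the 31-base words of Acaa1b exons also occur in Acaa1a. Scp2 had 88.83, 45.90 and 20.81 FPKM in DEN+CCl4 livers and 115.01, 76.67 and 118.31 FPKM in controls (-1.18, SE 0.99). It shares 33.4% of its words with the pseudogene Scp2-ps2, so its level is uncertain as well. Scp2-ps2 was listed at 16.37, 6.01 and 1.65 FPKM in DEN+CCl4 livers and at 28.81, 10.35 and 25.15 FPKM in controls.

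Crot, which puts medium-chain acyl groups onto carnitine for export to mitochondria, and the isomerases Ech1 and Eci2, which handle unsaturated chains, act beside the core. Crot was at 7.62, 4.58 and 2.19 FPKM in the DEN+CCl4 livers and at 16.14, 10.47 and 17.20 FPKM in the controls. Every DEN+CCl4 liver was below every control (4.797 ± 2.72 FPKM in DEN+CCl4 livers and 14.6 ± 3.62 FPKM in controls, SD, n = 3 each; log2 fold change -1.51, SE 0.70, limma adjusted p 0.521). Ech1 was at 54.83, 23.39 and 5.78 FPKM in DEN+CCl4 livers and at 69.03, 46.38 and 98.28 FPKM in controls (-1.72, SE 0.93). Eci2 was at 18.91, 11.58 and 1.94 FPKM in DEN+CCl4 livers and at 18.64, 25.52 and 23.21 FPKM in controls, where the overlap was only that of DEN+CCl4 replicate 1 with control replicate 1.

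The α-oxidation pair Phyh and Hacl1, which hydroxylate and then cleave branched fatty acids such as phytanic acid, included the member with the smallest adjusted p. Hacl1 had 5.77, 0.87 and 0.26 FPKM in the DEN+CCl4 livers and 7.03, 4.49 and 6.10 FPKM in the controls. DEN+CCl4 replicate 1 was inside the control range and the other 2 were far below it (2.30 ± 3.02 FPKM in DEN+CCl4 livers and 5.87 ± 1.29 FPKM in controls, SD, n = 3 each; log2 fold change -1.43, SE 0.55, limma adjusted p 0.2755). Without DEN+CCl4 replicate 1 it passed (log2 fold change -2.15, limma adjusted p 0.0194), and 3.17% of all tested genes were then called lower and 1.28% higher. An overlapping gene on the same strand, Gm49387, covers 31.1% of its exon bases, so part of these reads could belong to that gene. Phyh, the most abundant member by mean FPKM, had 348.95, 128.05 and 32.44 FPKM in DEN+CCl4 livers and 543.60, 275.34 and 564.72 FPKM in controls (-1.94, SE 1.06, limma adjusted p 0.722).

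The tested genes of the oxidases and the glyoxylate pathway all had negative fold changes in the main fit, and differences between them were not tested. Hao1, which oxidises glycolate to glyoxylate, was at 11.95, 11.56 and 4.48 FPKM in the DEN+CCl4 livers and at 15.92, 12.80 and 15.92 FPKM in the controls, without overlap but with the first 2 DEN+CCl4 livers just below the lowest control (9.33 ± 4.21 FPKM in DEN+CCl4 livers and 14.9 ± 1.80 FPKM in controls, SD, n = 3 each; log2 fold change -0.72, SE 0.75, limma adjusted p 0.996). Agxt, which turns glyoxylate into glycine, was at 49.58, 29.57 and 14.03 FPKM in DEN+CCl4 livers and at 79.15, 48.36 and 98.76 FPKM in controls (-1.36, SE 0.95). Pipox, which oxidises pipecolic acid and sarcosine, was at 70.96, 33.54 and 5.01 FPKM in DEN+CCl4 livers and at 67.03, 81.19 and 80.80 FPKM in controls (-1.65, SE 0.95). The overlaps in Agxt and Pipox each rested on DEN+CCl4 replicate 1 and 1 control, and were gone after median-ratio scaling.

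Uox, which breaks down urate, had the fold change closest to 0 among the tested enzymes with all 6 libraries, at 87.25, 67.39 and 13.89 FPKM in the DEN+CCl4 livers and 66.77, 63.79 and 82.84 FPKM in the controls (log2 fold change -0.68, SE 0.98; 0.12 without DEN+CCl4 replicate 3). Hao2 was at or near 0 in every library, at most 0.12 FPKM in DEN+CCl4 livers and 0.02 FPKM in controls.

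Cat encodes catalase, which removes the hydrogen peroxide that these oxidases make. It had 354.41, 81.09 and 25.84 FPKM in the DEN+CCl4 livers and 533.43, 200.88 and 475.61 FPKM in the controls. Replicates 2 and 3 of DEN+CCl4 were below every control and replicate 1 lay among them (154 ± 176 FPKM in DEN+CCl4 livers and 403 ± 178 FPKM in controls, SD, n = 3 each). Its log2 fold change was -2.01 (SE 1.06, limma adjusted p 0.698) and, without DEN+CCl4 replicate 3, -1.12. The ratio of Uox to Cat within a library, chosen after its values were seen, was 0.246, 0.831 and 0.538 in the DEN+CCl4 livers and 0.125, 0.318 and 0.174 in the controls. The first DEN+CCl4 liver was within the control range and the other 2 above it.

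By mean FPKM Phyh, Cat and Acaa1b were the 3 most abundant members in both groups, but this order of means did not hold within the DEN+CCl4 livers. Cat was the highest member in DEN+CCl4 replicate 1, Acaa1b in replicate 2 and Phyh in replicate 3. The control means of Phyh and Cat were 461 ± 161 and 403 ± 178 FPKM (SD, n = 3). Phyh was above Cat in each control, though by little in replicate 1 (543.60 against 533.43 FPKM), and this difference was not tested.

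The promoters of the members ranged widely in CpG content, and those of 4 genes are printed here, 3 to show that range and Cat for a motif. The promoters were RefSeq windows on GRCm38.p6, from 250 bases before the start of a gene to 50 after it. Windows of 27 members were analysed (31 windows, 1 taken per gene below). No window of Hsd17b4, Pex2, Pex19 or Abcd2 was analysed, so the promoter values of the members leave these genes out. CpG observed over expected compares the CG pairs with the number that the window's C and G content would give. Its median was 0.840 for 11 Pex genes, 0.488 for 16 enzymes and transporters and 0.384 for all 32851 promoter windows. The classes overlapped and their difference was not tested: Abcd3 had the highest ratio (1.12), with Ech1 at 0.925 and Crot at 0.797, while Pex11a was at 0.527. Pex5 was at 0.422 in the window taken but at 0.758 and 0.843 in its other windows. In the first 3 sequences capitals mark CG pairs: Pex10 (chr4:155066780-155067079, plus strand) holds 29, Pex11a (chr7:79743082-79743381, minus strand) 13 and Agxt (chr1:93134990-93135289, plus strand) 3. In Cat (chr2:103485104-103485403, minus strand) capitals mark a near match to a direct repeat of AGGTCA with 1 base of any kind between the copies, the pattern bound by PPARα with its partner RXR.
Pex10: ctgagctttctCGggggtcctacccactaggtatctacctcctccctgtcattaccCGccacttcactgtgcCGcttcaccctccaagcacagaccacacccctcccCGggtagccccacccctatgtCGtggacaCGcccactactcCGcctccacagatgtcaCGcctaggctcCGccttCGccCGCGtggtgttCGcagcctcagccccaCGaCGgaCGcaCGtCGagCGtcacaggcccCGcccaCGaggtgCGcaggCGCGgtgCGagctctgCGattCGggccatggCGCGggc
Pex11a: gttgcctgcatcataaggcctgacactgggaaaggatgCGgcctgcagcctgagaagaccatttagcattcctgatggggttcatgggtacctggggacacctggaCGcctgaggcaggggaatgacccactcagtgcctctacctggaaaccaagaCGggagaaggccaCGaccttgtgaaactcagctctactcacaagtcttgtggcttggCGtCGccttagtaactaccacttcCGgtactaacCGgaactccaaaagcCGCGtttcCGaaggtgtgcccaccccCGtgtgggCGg
Agxt: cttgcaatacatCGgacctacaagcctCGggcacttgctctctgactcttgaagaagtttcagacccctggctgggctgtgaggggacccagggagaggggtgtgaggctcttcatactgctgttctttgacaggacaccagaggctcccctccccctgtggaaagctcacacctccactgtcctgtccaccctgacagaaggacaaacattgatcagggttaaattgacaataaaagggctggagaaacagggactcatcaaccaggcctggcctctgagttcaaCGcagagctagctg
Cat: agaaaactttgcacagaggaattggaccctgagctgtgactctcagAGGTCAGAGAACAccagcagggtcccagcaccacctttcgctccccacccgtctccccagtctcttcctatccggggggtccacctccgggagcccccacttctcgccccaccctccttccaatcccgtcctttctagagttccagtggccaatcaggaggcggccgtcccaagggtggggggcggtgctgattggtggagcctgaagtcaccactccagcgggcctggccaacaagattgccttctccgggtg

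The match in Cat, AGGTCAGAGAACA, begins 204 bases before the start and has 2 mismatches, the most allowed in a search of both strands. It was the only one among the 31 member windows (3.23%), against 3.86% of all promoter windows, so the members' windows held it no more often than promoters in general. The letters TATAAA, searched only on the strand as printed, were in 0 of the 31 member windows and in 8.32% of all windows.

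Within the Pex class, genes with a lower CpG ratio tended to have the more negative fold changes. Pex10, printed above, stood at a CpG ratio of 0.909 with a log2 fold change of -0.12, and Pex11a at 0.527 with -1.53. Pex5, with the lowest ratio of the class in the window taken (0.422), was at -0.87. Across the 9 tested Pex genes with a window, Pearson's r between CpG ratio and fold change was 0.669 and Spearman's rho 0.883. Over the 6 choices of window for genes that have several, r ran from 0.669 to 0.913 and rho from 0.850 to 0.917. Across 15 enzymes and transporters r was -0.032 and rho -0.018, and across all 24 members r was 0.374 and rho 0.35. These are descriptions across genes that share the same 6 libraries, found after the values were seen, and genes are not independent replicates. Pex3 and Pex10, both at a high CpG ratio, also had the lowest control means of the 9 (1.56 and 2.57 FPKM), where log2(FPKM + 1) makes fold changes smaller. Pex11a and Pex16, with the most negative fold changes, had the highest control means of the 9 (21.5 and 29.5 FPKM). Pex6, at 19.4 FPKM, was at -0.76. The part of expression level in this relation was not tested.

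**Figure D5:**
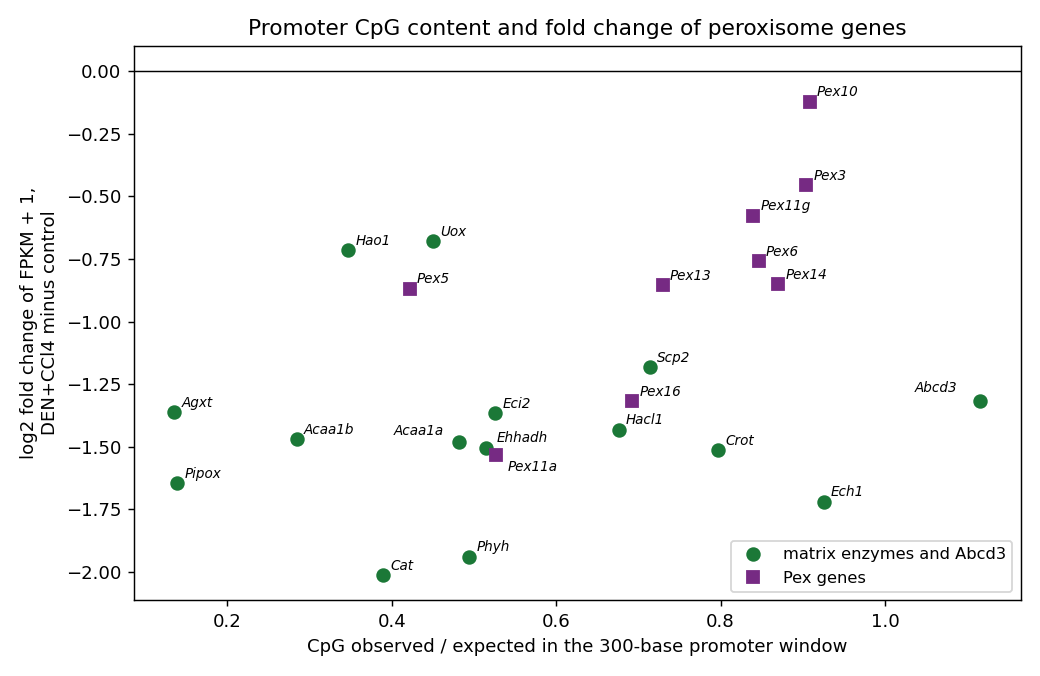
CpG observed over expected in the promoter window against the log2 fold change (FPKM + 1, DEN+CCl4 minus control) for 24 members with both values. Among the 9 Pex genes (purple squares), Pex11a (0.527, -1.53) has the most negative fold change and Pex10 (0.909, -0.12) the least. Pex5 has the lowest CpG ratio with a middling fold change (0.422, -0.87). The fold change tends to rise with the ratio among the Pex genes, but not among the 15 enzymes and transporters (green circles).

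Of 33 other tested peroxisome genes, 0 passed in either direction and the median log2 fold change was -1.0. Slc27a2, which activates very long-chain fatty acids, was among the most abundant on the list. Slc27a2 was at 122.01, 61.87 and 18.05 FPKM in DEN+CCl4 livers and at 125.82, 114.32 and 141.64 FPKM in controls (log2 fold change -1.28, SE 1.01). Ephx2, an epoxide hydrolase found in peroxisomes and cytosol, was chosen after its values were seen, with 90.72, 18.11 and 5.26 FPKM in DEN+CCl4 livers and 115.95, 115.11 and 168.48 FPKM in controls (-2.57, SE 0.98, limma adjusted p 0.255). The authors' deposited table annotates 43 tested genes outside the members as peroxisomal, of which 0 passed, with a median log2 fold change of -0.94.

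Genes of peroxisome division and turnover, and the regulators of the PPARα pathway, were closer to all genes. Of 5 tested division and turnover genes 0 passed, with a median log2 fold change of -0.61. Of these, Sqstm1, an autophagy receptor, had 51.69, 41.18 and 14.71 FPKM in DEN+CCl4 livers and 57.35, 40.57 and 56.58 FPKM in controls. Fis1, a fission adaptor, had 21.91, 16.03 and 4.10 FPKM in DEN+CCl4 livers and 23.32, 15.42 and 25.45 FPKM in controls. Both stayed inside the control range in the first 2 DEN+CCl4 livers.

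Of 5 tested regulators 0 passed, with a median of -0.46. Rxra, the partner of PPARα, was at 35.66, 16.34 and 8.71 FPKM in DEN+CCl4 livers and at 28.65, 26.94 and 32.49 FPKM in controls. Lpin1, a coactivator and lipid phosphatase, was at 21.53, 11.89 and 1.20 FPKM in DEN+CCl4 livers and at 13.61, 14.91 and 14.08 FPKM in controls. Ppara itself, chosen after its values were seen, was at 4.50, 4.14 and 0.60 FPKM in DEN+CCl4 livers and at 2.82, 4.55 and 4.27 FPKM in controls. Each of the 3 was above or within the control range in DEN+CCl4 replicate 1.

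PPARα targets outside the peroxisome included the only genes of these peroxisome and PPARα lists that passed. Of 17 tested, 1 rose and 2 fell, and the median log2 fold change was -1.14. Cyp4a10 and Cyp4a14, ω-hydroxylases of fatty acids, fell, but they are close paralogs whose reads may have been split between them. Cyp4a10 had 62.66, 5.40 and 0.18 FPKM in the DEN+CCl4 livers and 66.64, 158.90 and 200.96 FPKM in the controls (log2 fold change -4.05, SE 0.93, limma adjusted p 0.00464). Cyp4a14 had 4.66, 0.78 and 0.02 FPKM in DEN+CCl4 livers and 7.09, 42.19 and 33.89 FPKM in controls (-3.40, SE 0.66, limma adjusted p 0.000359). Both were lower in every DEN+CCl4 liver than in any control, with replicate 1 just below the lowest control. Fgf21, a hormone of fasting and stress, rose, with 0.57, 9.78 and 4.19 FPKM in DEN+CCl4 livers and 0.05, 0.74 and 0.81 FPKM in controls and an overlap in DEN+CCl4 replicate 1 (1.58, SE 0.46, limma adjusted p 0.0480). None of the 3 passed after median-ratio scaling.

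Markers of other liver cells moved beside these values, and their part in the results was not tested. In whole liver, fewer cells of a type and less RNA per cell cannot be told apart. Alb and Apoa1, which define hepatocytes, were abundant in every library, with Alb at 11747.81, 24458.68 and 7481.73 FPKM in DEN+CCl4 livers and 15311.04, 13751.39 and 23556.35 FPKM in controls. Of 9 tested hepatocyte markers 0 passed, but Cps1, an enzyme of the urea cycle, was at 111.39, 43.90 and 12.88 FPKM in DEN+CCl4 livers and at 119.53, 121.13 and 121.44 FPKM in controls (log2 fold change -1.56), without overlap. Ttr had a log2 fold change of -1.75 and Serpina1c of -0.91. The summed level of 8 stellate cell markers was 14.8 to 38.6 FPKM in DEN+CCl4 livers and 8.82 to 12.7 FPKM in controls, with 0 of 6 tested past the threshold. Its defining genes Col1a1 and Col1a2 were at 2.06 to 7.25 and 0.95 to 2.03 FPKM in DEN+CCl4 livers and at 0.63 to 0.99 and 0.27 to 0.44 FPKM in controls. The list was mixed: Lrat, which stores retinol in quiescent stellate cells, was at 0.15 to 0.35 FPKM in DEN+CCl4 livers and at 0.40 to 0.58 FPKM in controls, and Dcn had a log2 fold change of 0.02.

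The summed level of 9 leukocyte markers was 12.2 to 24.7 FPKM in DEN+CCl4 livers and 6.22 to 8.26 FPKM in controls. Of 4 tested, 1 passed, S100a8, a neutrophil protein, at 3.19, 1.38 and 8.96 FPKM in DEN+CCl4 livers and 0.76, 0.42 and 0.34 FPKM in controls (log2 fold change 1.63, SE 0.46, limma adjusted p 0.0336). Much of the sum in the DEN+CCl4 livers was S100a8 and S100a9. S100a9 was at 10.75, 3.64 and 12.41 FPKM in DEN+CCl4 livers and 3.72, 1.79 and 1.30 FPKM in controls. The list was mixed, and Cd79a had a log2 fold change of -0.25. The defining genes Ptprc and Cd3e were at 0.50 FPKM or less in every library. Kupffer cell markers summed to 20.2 to 41.4 FPKM in DEN+CCl4 livers and 33.01 to 86.1 FPKM in controls (0 of 5 tested passed), with Clec4f at 2.83 to 20.83 FPKM in DEN+CCl4 livers and 18.62 to 40.50 FPKM in controls, and Vsig4 at 1.71 to 3.45 FPKM in DEN+CCl4 livers and 2.46 to 9.76 FPKM in controls.

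Endothelial markers summed to 8.16 to 24.8 FPKM in DEN+CCl4 livers and 11.3 to 20.3 FPKM in controls (0 of 4 tested passed), with Stab2 at 1.40 to 4.14 FPKM in DEN+CCl4 livers and 3.02 to 5.77 FPKM in controls, and Lyve1 at 0.76 to 1.65 FPKM in DEN+CCl4 livers and 0.12 to 0.30 FPKM in controls. Cholangiocyte markers summed to 14.5 to 34.0 FPKM in DEN+CCl4 livers and 9.20 to 16.4 FPKM in controls (0 of 2 tested passed). Most of that sum was Spp1, at 12.93 to 27.37 FPKM in DEN+CCl4 livers and 8.20 to 14.88 FPKM in controls. Epcam was at 0 to 0.11 FPKM in DEN+CCl4 livers and 0.17 to 0.22 FPKM in controls. The defining genes Krt7 and Krt19 were at most 0.49 and 3.06 FPKM in DEN+CCl4 livers and 0.16 and 0.93 FPKM in controls.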

How the data were processed

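Poly(A) RNA of 3 DEN+CCl4 and 3 control mouse livers was sequenced. The deposited FPKM values, per gene and library, were made by the authors with HISAT and StringTie on GRCm38, per the submitters' processing notes, which give no versions. Read counts and total depth are unknown: low values did not fall on common steps, so no reads could be recovered and no counting error can be given. The members and gene lists were chosen with earlier results of these data known. All 31 members in the table are named whatever their values; from the other lists the genes that passed are named, plus the 2 most abundant if 0 or 1 did, and from each marker list its 2 defining genes. A gene that this rule names is not reported here. Genes averaging 1 FPKM or more entered limma 3.58.1, fitted to log2(FPKM + 1) in 6 libraries (R 4.3.3, variance trend, two-sided), adjusted by Benjamini-Hochberg at 0.05; this scale understates changes of low genes. The method was tested on simulated data with independent genes and no shift of a whole library, so that test does not cover a library like DEN+CCl4 replicate 3. Alternatives were other pseudocounts and filters, median-ratio and quantile scaling, mitochondrial genes left out, no trend, a replicate block and each library left out. Gene overlaps and shared 31-base words came from GENCODE M21, promoters from RefSeq. Protein sequences were not analysed here. The genes are named as in the deposited table.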

Additional observations from a re-analysis of the deposited data

How the results depend on the processing

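Over 21 alternatives, 561 fold changes of the 27 tested members were recomputed: 544 kept their sign and side of the threshold, 10 changed sign and 7 newly passed. The gap between the class medians (enzymes and transporters minus Pex genes, -0.72 log2) ran from -0.91 to -0.41. With a library left out, Pex6 ran from -1.27 to 0.09003, Uox from -1.17 to 0.12, Pex10 from -0.51 to 0.43 and Pex11g from -1.23 to 0.29, each positive only without DEN+CCl4 replicate 3. With median-ratio scaling as well, Pex11g was 0.0612 and Pex10 0.24 without DEN+CCl4 replicate 3, and Pex10 was 0.0766 without control replicate 2 and 0.0582 without control replicate 3. With quantile normalization Uox was 0.0881 and Pex10 0.0285. Members past the threshold numbered 0 to 1 with a library left out (Hacl1, without DEN+CCl4 replicate 1), and 0 to 6 with median-ratio scaling as well, a combination chosen after seeing the data (Ech1, Eci2, Hacl1, Hsd17b4, Pex11a and Pipox, without DEN+CCl4 replicate 1). Genes past the threshold (71 higher and 55 lower) were 6 and 3 with a pseudocount of 0.1, 4 and 0 with 0.01, 14 and 53 with a filter at 5 FPKM, and 6 and 3 with mitochondrial genes left out. They were 0 and 0 with no filter, median-ratio scaling, quantile normalization or no variance trend. With a library left out they ran from 0 to 109 higher and 0 to 270 lower, and with median-ratio scaling as well from 0 to 233 higher and 0 to 438 lower. The causes were not tested. The labels do not say whether the replicate numbers pair the samples. Correlations of deviations were 0.0716, 0.416 and -0.146 for same-numbered libraries and ran from -0.372 to 0.228 for the others, which cannot settle it. A replicate block gave 62 higher and 32 lower genes and 0 members. Depth is unknown, so the precision of low genes such as Pex3 and Pex10 cannot be given.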
